A study of Saccharomyces cerevisiae with 4 samples.

Results

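The autophagy genes of budding yeast (Saccharomyces cerevisiae) were followed in newly made RNA from a strain in which Ssl2 can be removed from the nucleus. The set was 33 genes listed by systematic name: the ATG genes, the sorting nexin gene SNX4, and VPS15, VPS30 and VPS34. Of these, 30 had a transcript among the 6030 of the deposited annotation, and all 30 passed the low-count filter. ATG2, ATG16 and VPS15 were not analysed here. The members were sorted by the role of their protein, and the kinase complex (6 measured genes), the conjugation systems (7) and the lipid kinase complex (3) were set side by side.

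Autophagy is the process by which a cell encloses cytoplasm in a double membrane, the autophagosome, and delivers it to the vacuole for breakdown. The Atg1 kinase complex starts it, a phosphatidylinositol 3-kinase marks the growing membrane, Atg9 vesicles and lipid transfer feed it, and a pair of ubiquitin-like conjugation systems attach Atg8 to its lipid. In yeast the process is held low in rich medium by the TORC1 kinase, the target of rapamycin, and the same proteins serve a constitutive route that carries hydrolases to the vacuole.

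RNA came from cells given rapamycin (2 libraries) and from cells of the same strain without it (2 libraries). The strain of both groups is labelled Y40343 with Ssl2-FRB::kanMX6. Ssl2 is a DNA translocase of the general transcription factor TFIIH. In anchor-away, rapamycin bridges the FRB tag and an anchor on a protein that is exported, so that the tagged protein is carried out of the nucleus. Cells grew at 30 C in rich medium (YPD) to an OD600 of 0.8 and were labelled with 5 mM 4-thiouracil for 6 min, and the labelled RNA was purified. The sources used here do not give the dose or duration of rapamycin, and no untagged strain with rapamycin was analysed here, so loss of nuclear Ssl2 and other effects of the drug cannot be told apart.

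Anchor-away strains are usually built with a TOR1 allele that resists rapamycin and without FPR1, the gene of the protein through which the drug blocks TORC1. The labels give neither allele. FPR1 measured 2.08 and 1.63 CPM with rapamycin, against 2.26 and 2.25 CPM without it. The median open reading frame stood at 66.3 and 63.9 CPM with rapamycin, against 79.6 CPM in both libraries without it, so FPR1 was far under the typical gene in all 4 libraries. TOR1 was not analysed here. CPM is a count relative to the library's total counts, with TMM scaling to the bulk of genes, so each value is a share of the labelled RNA and a change common to most genes is not seen.

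Libraries held 11441998 and 12685769 feature counts with rapamycin, against 32435994 and 29318499 without it. Genes specific to MATalpha cells measured 90.2 to 426 CPM over 3 genes, and 6 genes specific to MATa cells 0.0332 to 17.9 CPM, none of them at 0. Of the MATa genes 4 were called higher with rapamycin, beside 17.5% of all open reading frames. These calls rested on few counts. AGA2 had 9 and 35 counts with rapamycin, against 1 and 2 without it, and BAR1 56 and 212, against 109 and 64. The summed level of all 6 MATa genes was 23.5 and 45.5 CPM with rapamycin, against 22.8 and 19.2 CPM without it. Their part in the results was not tested. Open reading frames under 10 CPM without rapamycin differed between the libraries with rapamycin. Their median log2 ratio of with rapa replicate 2 over with rapa replicate 1 was 0.59, against -0.05 for those at or over 10 CPM. The members under 10 CPM were ATG10, ATG14, ATG34 and ATG31. With rapa replicate 2 was well above replicate 1 for ATG10 and ATG34, slightly above it for ATG14 and below it for ATG31. ATG17, at 13.6 CPM without rapamycin, had a wide gap too (3.44 and 14.0 CPM with it).

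With rapamycin, 2 of the 30 autophagy genes rose (6.67%) and 12 fell (40%) by edgeR's quasi-likelihood test at a Benjamini-Hochberg adjusted p under 0.05. Over all 5707 features tested, 19.3% were called higher and 26.7% lower. Over the 4910 open reading frames alone, 17.5% were higher and 30.2% lower, and no difference from the background was tested. These shares also stand beside the counts given below for each role and list, none of which was tested against them. The number that fell was 7 with DESeq2, 8 with open reading frames alone and 6 without no rapa replicate 1, and the number that rose was 5 without with rapa replicate 2, so neither share is read as a result about the members. The 2 that rose were ATG31, a scaffold gene of the kinase complex, and ATG22, a vacuolar amino acid exporter gene. The 12 that fell were ATG1, ATG29, ATG4, ATG5, ATG7, VPS30, ATG9, ATG21, ATG23, ATG20, SNX4 and ATG15. The median log2 fold change was -0.42 over the 30 members and -0.14 over open reading frames. Both libraries with rapamycin lay below both without it for 17 members and above them for 8, and the groups overlapped for 5. Over all features 40.1% lay below and 34.1% above, and over open reading frames 45.1% lay below and 30.1% above.

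**Figure D1:**
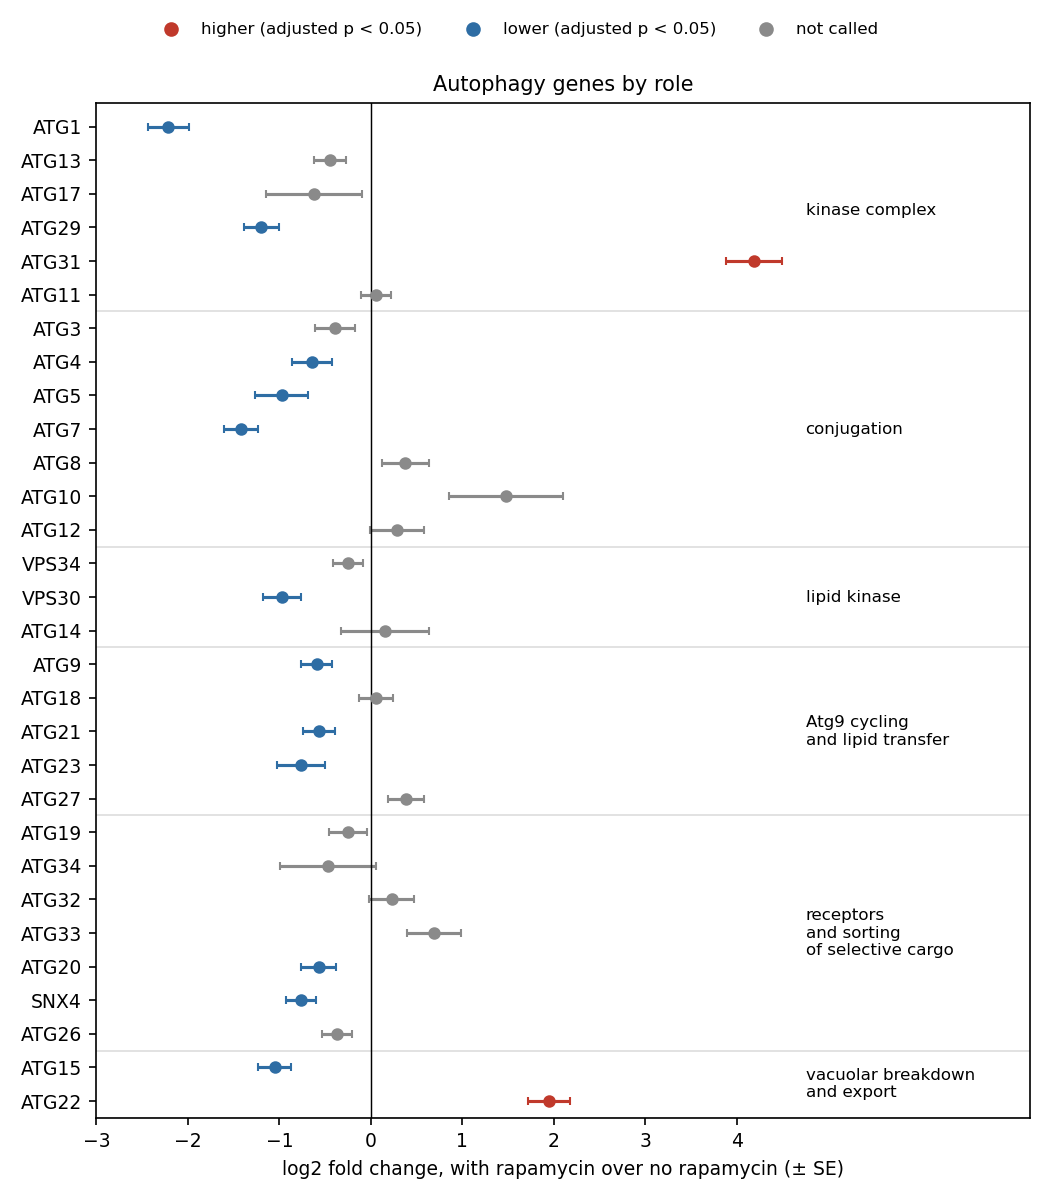
Log2 fold change (with rapamycin over no rapamycin, horizontal axis) of the 30 measured autophagy genes, grouped by role; points are the edgeR estimate and bars its SE, from 2 libraries per group. ATG31 at 4.19 and ATG22 at 1.95 stand to the right, and ATG1 at -2.21 is the member furthest to the left.

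The kinase complex held the highest and the lowest fold change of all members. Of its 6 genes, ATG31 rose, ATG1 and ATG29 fell, and ATG13, ATG17 and ATG11 were not called, with a median log2 fold change of -0.54. The promoter windows of ATG31 and ATG1 are shown because these genes moved furthest in opposite directions within the same complex, and those of ATG22 and ATG8 because ATG22 was the other gene that rose and the promoter of ATG8 is well studied in yeast. Each window is the RefSeq R64 genome from 250 bases before to 50 bases after the annotated transcript start, 5′ to 3′ on the strand of the gene: chrIV:488641-488940 (minus strand) for ATG31, chrVII:159252-159551 (plus strand) for ATG1, chrIII:56534-56833 (minus strand) for ATG22 and chrII:80726-81025 (minus strand) for ATG8. Capitals mark matches to any of 5 motifs searched on both strands, which are described with the promoters of all members further on.
ATG31: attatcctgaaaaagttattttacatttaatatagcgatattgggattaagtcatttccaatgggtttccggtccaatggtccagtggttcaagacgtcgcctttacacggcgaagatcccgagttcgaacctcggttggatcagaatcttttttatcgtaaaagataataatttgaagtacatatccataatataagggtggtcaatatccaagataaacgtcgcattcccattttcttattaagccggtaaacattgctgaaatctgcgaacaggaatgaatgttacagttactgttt
ATG1: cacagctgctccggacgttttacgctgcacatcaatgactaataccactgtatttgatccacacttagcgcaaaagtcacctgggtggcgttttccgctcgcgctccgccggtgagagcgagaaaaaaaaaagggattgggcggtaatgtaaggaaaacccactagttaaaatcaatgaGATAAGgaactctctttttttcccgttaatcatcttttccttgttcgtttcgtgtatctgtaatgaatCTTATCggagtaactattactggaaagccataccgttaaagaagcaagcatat
ATG22: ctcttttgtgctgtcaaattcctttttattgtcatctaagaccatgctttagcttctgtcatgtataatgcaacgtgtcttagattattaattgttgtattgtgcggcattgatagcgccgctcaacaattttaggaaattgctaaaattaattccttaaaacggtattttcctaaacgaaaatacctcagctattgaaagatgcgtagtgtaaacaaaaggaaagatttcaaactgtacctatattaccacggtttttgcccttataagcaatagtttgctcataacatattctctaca
ATG8: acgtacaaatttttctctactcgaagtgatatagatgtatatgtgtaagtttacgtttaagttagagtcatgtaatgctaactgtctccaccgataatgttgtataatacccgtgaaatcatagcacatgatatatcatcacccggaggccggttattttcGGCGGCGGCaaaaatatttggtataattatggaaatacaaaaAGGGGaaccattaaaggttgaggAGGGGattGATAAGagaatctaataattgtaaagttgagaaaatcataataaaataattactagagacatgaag

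ATG31 (YDR022C), whose protein joins Atg17 and Atg29 in the scaffold that assembles at the site of autophagosome formation, was higher with rapamycin than any other member per length and near the bottom of the order without it. It measured 54.0 and 48.7 CPM with rapamycin, against 2.13 and 3.50 CPM without it, from 597 and 687 counts, against 64 and 103 counts. The groups did not overlap, and the difference was many times the spread within either. The log2 fold change was 4.19 ± 0.31 (SE), an 18.2-fold rise (adjusted p = 3.83e-06, edgeR quasi-likelihood test), and 9 of 4910 open reading frames, ATG31 included, rose by a log2 fold change of 4 or more. The 9 alternative fits that kept ATG31 gave log2 fold changes between 3.86 and 4.58, each past the threshold.

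ATG31 lies on chromosome IV from 487976 to 488690 (R64, minus strand), and its transcript starts 28 bases before the reading frame. Its 3′ end overlaps that of FAL1, an RNA helicase gene on the opposite strand, by 82 bp. FAL1 measured 43.2 and 54.2 CPM with rapamycin, against 33.9 and 42.3 CPM without it, and was not called (0.35 ± 0.21, adjusted p = 0.195). The divergent neighbour, the seryl-tRNA synthetase gene SES1, starts 796 bp away and measured 699.6 and 648 CPM with rapamycin, against 451 and 376 CPM without it, a rise of 0.71 ± 0.20 (adjusted p = 0.0123). That call was lost without either library that lacked rapamycin (adjusted p of 0.0610 and 0.208). The reference annotation also places a tRNA gene, YNCD0007C, on the strand of ATG31 from 488797 to 488870, inside the window printed above and 107 bp before the annotated start. RNA of the tRNA gene was not analysed here, and its part in the ATG31 counts was not tested.

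ATG1 (YGL180W) encodes the protein kinase that starts autophagy. It measured 131 and 86.3 CPM with rapamycin, against 557 and 451 CPM without it. The libraries with rapamycin were both far below those without it. The log2 fold change was -2.21 ± 0.23, a 4.63-fold fall (adjusted p = 1.80e-05, edgeR quasi-likelihood test), which placed ATG1 among the lowest 1.19% of the features tested. ATG1 lies on chromosome VII from 159502 to 163108 (plus strand), with 563 bases before its reading frame, the most of any member. A noncoding transcript on the opposite strand, XUT_7R-77, covers the first 247 bp and stood at 0.723 and 3.48 CPM with rapamycin, against 1.06 and 1.09 CPM without it, with overlapping groups.

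ATG29 (YPL166W), which encodes the third scaffold subunit, measured 33.6 and 30.1 CPM with rapamycin, against 76.7 and 69.2 CPM without it. It fell by 1.20 ± 0.19 on the log2 scale (adjusted p = 3.64e-04, edgeR), with no overlap between groups. Its deposited transcript runs 1127 bp past the reading frame and over 1466 bp of SET6 on the opposite strand, so its level per length is less certain than that of the others. SET6 stood at 2.41 to 9.93 CPM in the 4 libraries and was not called.

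ATG17, the gene of the subunit that dimerizes to form the scaffold core, measured 3.44 and 14.0 CPM with rapamycin, against 11.6 and 15.6 CPM without it. The library at 3.44 CPM rested on 38 counts, and the groups overlapped. Its log2 fold change of -0.62 ± 0.52 was not called (adjusted p = 0.349, edgeR), and without with rapa replicate 2 it was -1.89 and called (adjusted p = 2.01e-05), so the value turned on which of these libraries was kept.

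ATG13 encodes the regulatory subunit through which TORC1 controls the kinase. It measured 74.2 and 93.6 CPM with rapamycin, against 113 and 116 CPM without it, with no overlap. Its log2 fold change of -0.45 ± 0.17 missed the threshold (adjusted p = 0.0524, edgeR), and passed it with replicate number as a block (adjusted p = 0.0208), without the low-count filter (0.0446) and without with rapa replicate 2 (0.0193). ATG11, the scaffold gene of selective autophagy, was level between the groups at 130.4 and 145 CPM with rapamycin, against 135 and 130.2 CPM without it, with a log2 fold change of 0.06 ± 0.16 (adjusted p = 0.800).

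The make-up of the complex's labelled RNA differed between the groups. Per kb of transcript, ATG31 gave 38.3% and 35.2% of the summed level of the 6 genes with rapamycin, against 1.03% and 1.89% without it. ATG1 gave 18.5% and 12.4% with rapamycin, against 53.7% and 48.3% without it. The ratio of ATG31 to ATG29, whose proteins bind each other, was 4.06 and 4.10 with rapamycin, against 0.0702 and 0.128 without it. The summed level of the complex was 197 and 193 CPM per kb with rapamycin, against 287 and 259 CPM per kb without it. Fold changes of single subunits thus ran from far below to far above that of the sum.

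**Figure D2:**
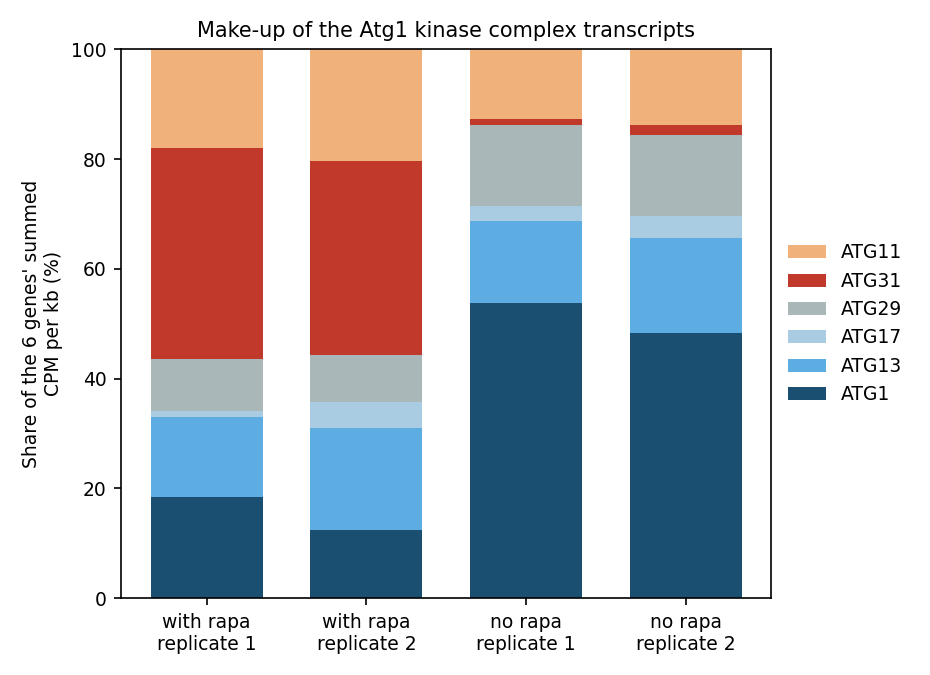
Share (%) of each gene in the summed CPM per kb of the 6 measured kinase complex genes, in each of the 4 libraries. ATG31 (red) takes 38.3% and 35.2% with rapamycin, against 1.03% and 1.89% without it, while ATG1 (dark blue) takes 18.5% and 12.4% with rapamycin, against 53.7% and 48.3% without it.

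In the conjugation systems, the genes of the shared E1 enzyme, the protease and a conjugation target fell, and those of both ubiquitin-like proteins were not called. Of 7 measured genes 0 rose, 3 fell (ATG7, ATG5 and ATG4) and 4 were not called, with a median log2 fold change of -0.39, against -0.14 over open reading frames. The 0 genes that rose were counted with edgeR, where 4 of the 7 had an unadjusted p under 0.05. DESeq2 called 1 of them higher, ATG10.

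ATG7 (YHR171W) encodes the E1 enzyme that activates both Atg8 and Atg12. It measured 30.5 and 29.7 CPM with rapamycin, against 81.4 and 79.1 CPM without it, a fall of 1.41 ± 0.19 on the log2 scale (2.67-fold, adjusted p = 8.50e-05, edgeR). The replicates of each group were close, and the groups were well apart. ATG5 encodes the protein to which Atg12 is joined and measured 34.9 and 18.0 CPM with rapamycin, against 59.5 and 44.1 CPM without it (-0.98 ± 0.29, adjusted p = 0.0165). ATG4 encodes the cysteine protease that trims Atg8 and frees it from lipid, and measured 33.3 and 26.0 CPM with rapamycin, against 46.4 and 46.0 CPM without it (-0.64 ± 0.22, adjusted p = 0.0284). The call of ATG7 held under every alternative run. ATG5 missed the threshold once no rapa replicate 1 was left out (-0.75, adjusted p = 0.117) and without with rapa replicate 2 (-0.47, 0.0769). ATG4 missed it in 5 of 10 alternatives, with adjusted p up to 0.173.

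ATG8 (YBL078C) encodes the ubiquitin-like protein that is joined to lipid on the autophagosome, and its mRNA is known to rise on starvation in yeast. It measured 31.9 and 25.6 CPM with rapamycin, against 19.5 and 24.7 CPM without it. The groups did not overlap, but the nearest libraries were close, and the log2 fold change of 0.38 ± 0.25 was not called (adjusted p = 0.239, edgeR). Without with rapa replicate 2 it was 0.62 and called (adjusted p = 0.0378). The ratio of ATG8 to ATG7 per kb was 3.76 and 3.09 with rapamycin, against 0.861 and 1.12 without it. The isoleucyl-tRNA synthetase gene ILS1 ends 172 bp before ATG8 on the same strand and stood at 3219 and 2535 CPM with rapamycin, against 1858 and 1463 CPM without it (0.79 ± 0.29, adjusted p = 0.0402). The call of ILS1 was lost without either library lacking rapamycin (adjusted p of 0.130 and 0.341) and without with rapa replicate 1 (0.0552), and its part in the ATG8 counts was not tested.

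ATG12, the other ubiquitin-like gene, measured 17.5 and 19.8 CPM with rapamycin, against 13.3 and 17.3 CPM without it (0.29 ± 0.30, adjusted p = 0.449). ATG10, the E2 enzyme gene for Atg12, had the lowest mean level per length of the members without rapamycin, within the spread of ATG31. It measured 3.62 and 9.36 CPM with rapamycin, against 2.09 and 2.58 CPM without it, from 40 and 132 counts, against 63 and 76 counts. The group with rapamycin was wide, and the log2 fold change of 1.48 ± 0.62 was not called (adjusted p = 0.0689). It passed without with rapa replicate 1 (1.97, adjusted p = 3.69e-05), with DESeq2 (0.0365), with RLE scaling (0.0401) and with open reading frames alone (0.0418). ATG3, the E2 enzyme gene for Atg8, measured 27.5 and 35.3 CPM with rapamycin, against 39.3 and 43.2 CPM without it, and was not called (-0.39 ± 0.22, adjusted p = 0.162).

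Of the lipid kinase complex, the gene of the shared Beclin-like subunit fell, and those of the catalytic and the autophagy-specific subunits were not called. VPS30 (YPL120W), also named ATG6, measured 27.7 and 37.3 CPM with rapamycin, against 66.1 and 61.9 CPM without it, a fall of 0.97 ± 0.21 on the log2 scale (adjusted p = 0.00254, edgeR). The groups were well apart. VPS34, the phosphatidylinositol 3-kinase gene itself, measured 149.9 and 125 CPM with rapamycin, against 165 and 162 CPM without it. Its log2 fold change of -0.25 ± 0.16 was not called (adjusted p = 0.232). Without with rapa replicate 1 it was -0.42 and called (adjusted p = 0.0453).

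ATG14, which directs the kinase to autophagy in place of vacuolar sorting, stood at 5.61 and 6.60 CPM with rapamycin, against 5.58 and 5.41 CPM without it, from 62 to 168 counts (0.15 ± 0.48, adjusted p = 0.818). Of the 3 genes 1 fell and 0 rose by edgeR (1 had an unadjusted p under 0.05, and DESeq2 called none higher), with a median log2 fold change of -0.25. VPS38, whose product takes the place of Atg14 in the vacuolar sorting complex, was not among the members. It measured 37.5 and 29.2 CPM with rapamycin, against 72.5 and 71.6 CPM without it, a fall of 1.11 ± 0.20 (adjusted p = 7.85e-04). ATG38, the gene of another subunit, was not called (0.87 ± 0.43, adjusted p = 0.112).

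Across these 3 groups, the medians of -0.54 (kinase complex), -0.39 (conjugation) and -0.25 (lipid kinase) rested on few genes that ranged widely. Members of the kinase complex ran from -2.21 to 4.19, those of conjugation from -1.41 to 1.48 and those of the lipid kinase from -0.97 to 0.15. The groups were not tested against each other. The kinase median was -0.15 without with rapa replicate 1 and -0.78 without with rapa replicate 2. Summed per kb, the conjugation genes stood at 175 and 159 CPM per kb with rapamycin, against 213 and 214 CPM per kb without it. The lipid kinase genes stood at 73.0 and 70.5 CPM per kb with rapamycin, against 99.7 and 96.2 CPM per kb without it. In all 3 sums both libraries with rapamycin lay below both without it, as did the median open reading frame, at 45.2 and 43.4 CPM per kb with rapamycin, against 54.9 and 55.04 CPM per kb without it, so this is no result particular to the groups.

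**Figure D3:**
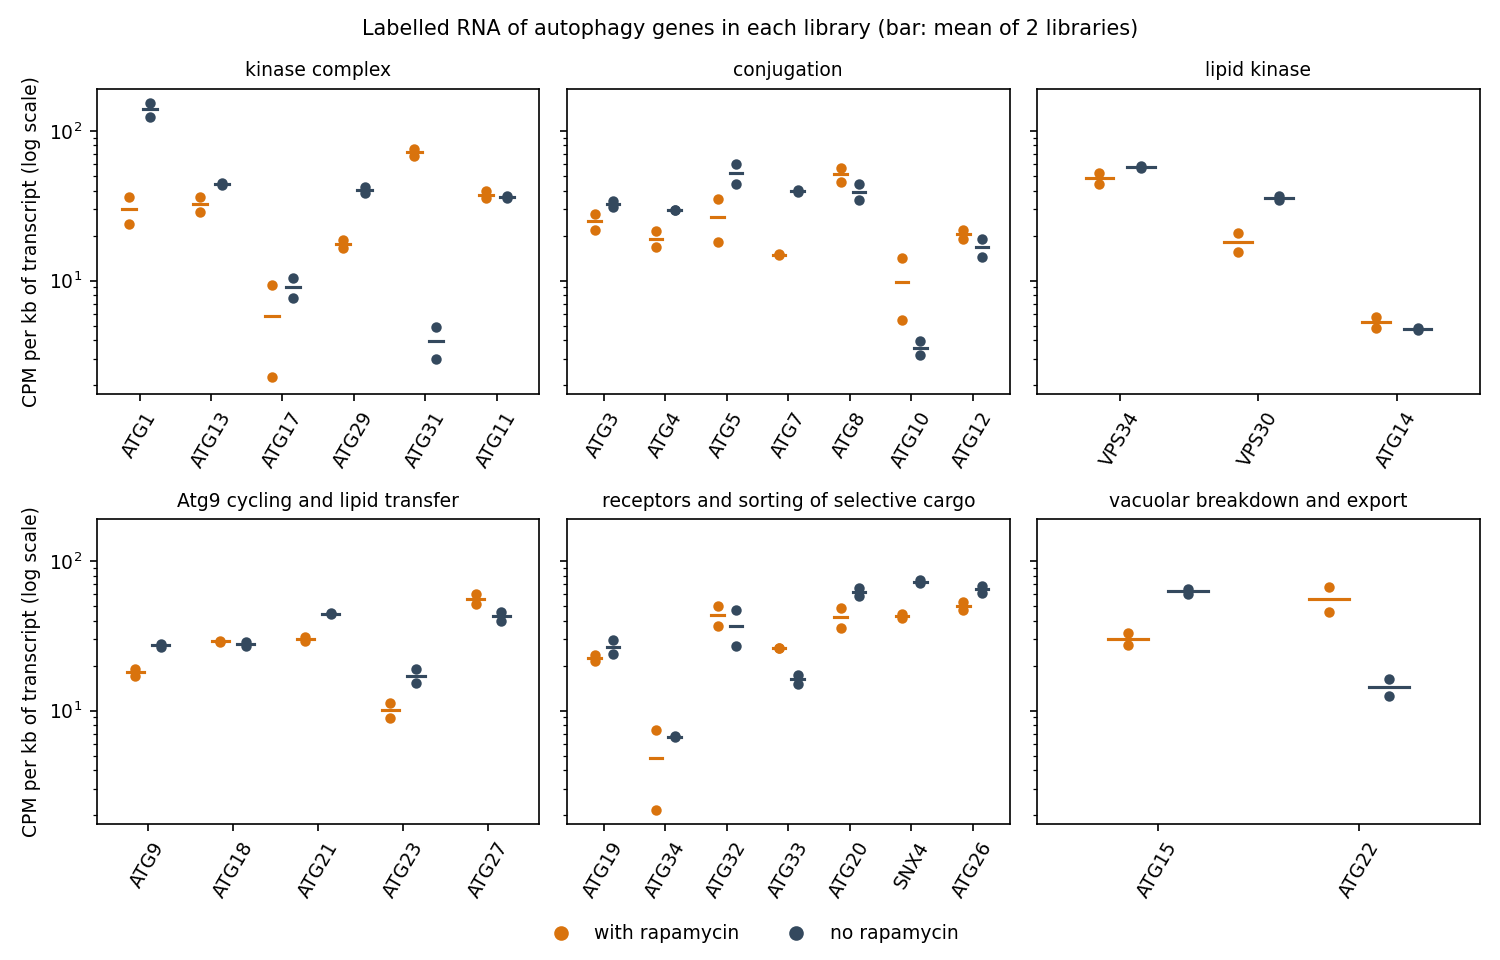
Level of each measured autophagy gene in every library, in CPM per kb of annotated transcript on a log scale, by role; orange points are the 2 libraries with rapamycin, dark points the 2 without it, and bars the group means. ATG31 and ATG22 are higher with rapamycin, ATG1, ATG7 and VPS30 lower, and the libraries with rapamycin lie wide apart for ATG17, ATG34 and ATG10.

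Among genes of Atg9 cycling and lipid transfer, those of the Atg9 membrane protein, its partner Atg23 and the phosphoinositide-binding protein Atg21 fell. Of 5 measured genes 0 rose by edgeR (3 had an unadjusted p under 0.05, and DESeq2 called none of the 5), 3 fell and 2 were not called, with a median log2 fold change of -0.57. Among open reading frames 17.5% rose and 30.2% fell. ATG9, the only membrane-spanning protein of the core machinery and a lipid scramblase, measured 59.8 and 53.6 CPM with rapamycin, against 87.7 and 83.2 CPM without it (-0.59 ± 0.17, adjusted p = 0.0151). ATG21 measured 49.3 and 46.4 CPM with rapamycin, against 71.3 and 70.3 CPM without it (-0.57 ± 0.18, adjusted p = 0.0211), and ATG23 15.4 and 19.4 CPM, against 32.7 and 26.2 CPM (-0.76 ± 0.26, adjusted p = 0.0315). In all 3 the groups did not overlap.

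The 3 falls rested on a modest margin. ATG9 and ATG21 lost the call with DESeq2 (adjusted p of 0.0525 and 0.0723; ATG21 also with open reading frames alone, 0.0586) and without no rapa replicate 1, no rapa replicate 2 or with rapa replicate 2, where their log2 fold changes ran from -0.65 to -0.42. ATG23 lost it with DESeq2 (0.0546), with open reading frames alone (0.0692), without overlapping features (0.0540) and without either library lacking rapamycin (0.296 and 0.0685). ATG18, which binds the phosphoinositide with Atg2, was level at 50.01 and 48.8 CPM with rapamycin, against 48.9 and 46.0 CPM without it (0.06 ± 0.19, adjusted p = 0.825). ATG27, a membrane protein needed for Atg9 movement, measured 50.5 and 58.4 CPM with rapamycin, against 44.8 and 38.9 CPM without it, and was not called (0.38 ± 0.20, adjusted p = 0.133).

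The sorting nexin genes fell, and the cargo receptor genes were not called. SNX4 and ATG20 encode sorting nexins that act as a pair in selective autophagy and endosomal sorting. SNX4 (YJL036W) measured 64.1 and 68.5 CPM with rapamycin, against 110.3 and 115 CPM without it, a fall of 0.76 ± 0.17 on the log2 scale (adjusted p = 0.00262, edgeR). ATG20 measured 102 and 74.6 CPM with rapamycin, against 139.9 and 123 CPM without it (-0.57 ± 0.19, adjusted p = 0.0257). Their ratio per kb was 0.853 and 1.25 with rapamycin, against 1.07 and 1.28 without it. SNX4 held its call under every alternative that kept it, and ATG20 lost it in 5 of 10, with a log2 fold change of -0.26 without with rapa replicate 2 (adjusted p = 0.250).

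ATG19 encodes the receptor that carries hydrolases to the vacuole and measured 38.1 and 34.8 CPM with rapamycin, against 47.7 and 38.8 CPM without it (-0.25 ± 0.21, adjusted p = 0.357). ATG34, its close relative on the same chromosome, was lower in level at 3.07 and 10.5 CPM with rapamycin, against 9.56 and 9.42 CPM without it, with overlapping groups. It was not called (-0.47 ± 0.53, adjusted p = 0.485), and without with rapa replicate 2 it was at -1.53 and called (adjusted p = 0.00151). ATG32, the mitophagy receptor gene, had overlapping groups, at 108 and 79.2 CPM with it, against 101 and 58.6 CPM without it (0.23 ± 0.24, adjusted p = 0.471). It passed without with rapa replicate 2 (0.53, adjusted p = 0.0163).

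ATG33, which encodes a mitochondrial protein of mitophagy, measured 19.8 and 20.1 CPM with rapamycin, against 11.5 and 13.2 CPM without it. The groups were apart, but the log2 fold change of 0.69 ± 0.29 was not called (adjusted p = 0.0730). It passed with RLE scaling (0.0417), with open reading frames alone (0.0404) and without with rapa replicate 2 (0.0254). ATG26, a sterol glucosyltransferase gene, measured 201 and 178 CPM with rapamycin, against 259 and 231 CPM without it (-0.37 ± 0.17, adjusted p = 0.0901), and passed without with rapa replicate 1 (-0.49, adjusted p = 0.0172). Of the 7 genes for receptors and cargo sorting, 2 fell, 0 rose by edgeR (4 had an unadjusted p under 0.05, and DESeq2 called none higher) and 5 were not called. Among open reading frames 30.2% fell and 17.5% rose.

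The pair of genes that act inside the vacuole moved in opposite directions. ATG15 (YCR068W) encodes the lipase that breaks down the delivered membrane, and measured 57.2 and 47.7 CPM with rapamycin, against 104 and 113 CPM without it, a fall of 1.05 ± 0.18 on the log2 scale (adjusted p = 5.10e-04, edgeR). ATG22 (YCL038C) encodes an exporter of amino acids from the vacuole, and measured 115 and 78.2 CPM with rapamycin, against 28.2 and 21.7 CPM without it. It rose by 1.95 ± 0.23, or 3.87-fold (adjusted p = 4.25e-05), and both libraries with rapamycin stood well above both without it. Both calls held under every alternative that kept the gene. In those alternatives ATG22 was at 1.62 or more and ATG15 at -0.83 or less.

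ATG22 (chromosome III, 54863 to 56583, minus strand) starts 214 bp after the end of SRO9 on the same strand. SRO9, which encodes an RNA-binding protein, stood at 2293 and 1730.2 CPM with rapamycin, against 626 and 657 CPM without it, a rise of 1.65 ± 0.26 (adjusted p = 2.90e-04, edgeR). The 2 genes thus rose by similar amounts, at levels far apart, and the part of SRO9 in the ATG22 counts was not tested. This look at same-strand neighbours was chosen after the values were seen. Beside its counts, 17.5% of all open reading frames were called higher and 30.2% lower. Of the 8 open reading frames that end within 1000 bp before a member on its strand, 2 were called higher (SRO9 and ILS1), 1 lower (SDH2, before ATG10, not called without no rapa replicate 1), and 4 had the sign of their member.

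The order of levels changed with the drug, at its ends and between them. Per kb of transcript without rapamycin, ATG1 was the highest member at 139.7 ± 20.7 CPM per kb (SD, n = 2) and SNX4 next at 73.0 ± 2.26. ATG26 (64.7 ± 5.39), ATG15 (62.6 ± 3.87) and ATG20 (62.4 ± 5.67) did not differ beyond their spread. ATG14 (4.74 ± 0.105), ATG31 (3.94 ± 1.36) and ATG10 (3.54 ± 0.528) closed the order, and ATG31 overlapped both. With rapamycin ATG31 stood first of the 30 at 71.8 ± 5.19 CPM per kb, where it had been in place 29, and ATG22 second at 56.1 ± 15.0, where it had been in place 25. ATG22, ATG27 (55.7 ± 5.73) and ATG8 (51.2 ± 7.94) did not differ beyond their spread. ATG1 stood in place 13 at 30.2 ± 8.85 CPM per kb. In the middle of the order, ATG29 went from place 11 to 24 and ATG7 from 12 to 25, while VPS34 kept place 6.

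Short members tended to be higher with rapamycin and long members lower, as for open reading frames in general. Of 7 members with a transcript under 1000 bp, a split chosen after the values were seen, 6 had both libraries with rapamycin above both without it and 1 below, 1 was called higher and 1 lower, and the median log2 fold change was 0.38. Open reading frames under 1000 bp had a median of 0.27, with 45.2% above, 20.7% below, 26.5% called higher and 9.82% called lower. Of the 23 longer members, 16 lay below and 2 above, 1 rose, 11 fell and 11 were not called, with a median of -0.57. Longer open reading frames had a median of -0.31, with 24.4% above, 54.3% below, 14% called higher and 38% lower. Across the 30 members, Spearman's rho between fold change and length was -0.45, against -0.37 across 4910 open reading frames. Among members length also went with mean log2 CPM (rho = 0.84), a value that is not divided by length. Between fold change and mean log2 CPM, rho was -0.32 across members and -0.15 across open reading frames. Length and level were not told apart, and the part of length in the falls of long members was not tested.

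**Figure D4:**
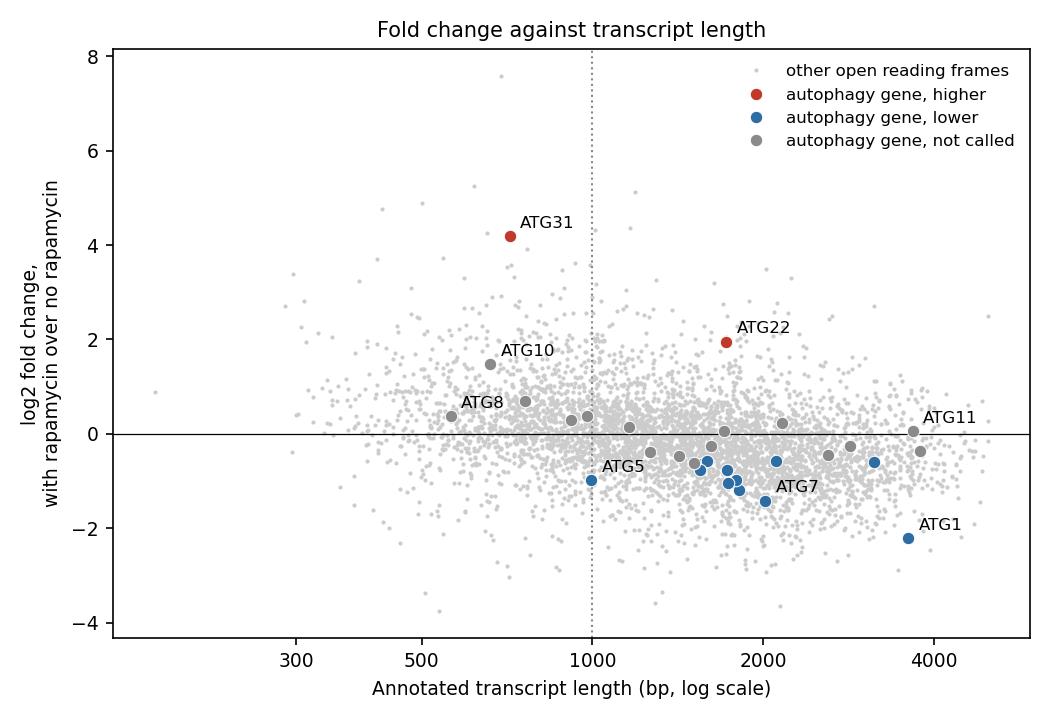
Log2 fold change (with rapamycin over no rapamycin) against annotated transcript length on a log scale, for the 30 measured autophagy genes (large points, coloured by call) and the other open reading frames tested (small grey points); the dotted line marks 1000 bp. Of the 7 shorter members 6 lie above 0, ATG31 and ATG22 stand well above the bulk at their length, and ATG1 lies near its lower edge.

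The transcripts beside the members gave a readout that the gene list did not use. Noncoding transcripts of the opposite strand overlapped 5 members (ATG1, ATG14, ATG18, ATG32 and ATG15), and 5 of these 6 transcripts were tested. All 5 stood below 8 CPM in every library, and 2 were called higher with rapamycin. CUT578, which covers 96.8% of ATG18, measured 1.54 and 7.80 CPM with rapamycin, against 0.863 and 1.29 CPM without it (2.12 ± 0.81, adjusted p = 0.0491, edgeR), while ATG18 was level. XUT_2F-197, which covers 64.3% of ATG14, measured 0.995 and 4.398 CPM with rapamycin, against 0.531 and 0.544 CPM without it (2.33 ± 0.87, adjusted p = 0.0456). In both, with rapa replicate 2 stood well above with rapa replicate 1, as open reading frames of low level did. Without with rapa replicate 2 neither was called, with log2 fold changes of 0.60 for CUT578 (adjusted p = 0.507, edgeR) and 0.97 for XUT_2F-197 (0.377), and neither was called without either library lacking rapamycin (0.218 to 0.384). Over the 797 noncoding transcripts tested, 30.6% were called higher and 4.64% lower, so the share among these 5 was near the background.

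Genes that start within 1000 bp upstream of a member, on the opposite strand, were read as its divergent neighbours. Other transcripts can lie between, as MAK3 starts between ATG11 and SMK1, and ATG11 was counted with both. Of 13 such open reading frames, 4 were called higher and 4 lower, beside 17.5% and 30.2% of all open reading frames. Of the 13, 10 had the sign of their member, among them MAK3 and SMK1, set against ATG11 at only 0.06. How often other divergent pairs share a sign was not tested. LRO1, a lipid acyltransferase gene beside ATG3, measured 75.5 and 65.2 CPM with rapamycin, against 152 and 149.6 CPM without it, a fall of 1.10 ± 0.17 (adjusted p = 2.37e-04, edgeR), while ATG3 was not called. YBP1, beside ATG12, fell by 1.04 ± 0.19 (adjusted p = 9.45e-04), while ATG12 was at 0.29. IMD3 beside ATG23 (-0.67 ± 0.18) and MMR1 beside ATG26 (-0.90 ± 0.18) also fell, and ATG23 fell with its neighbour. SPP382 beside ATG17 (0.91 ± 0.18), RPL17B beside ATG27 (1.35 ± 0.20), SES1 beside ATG31 and ILV5 beside ATG33 (0.69 ± 0.23) rose. ILV5 lost its call without either library lacking rapamycin (adjusted p of 0.182 and 0.171, edgeR) and without with rapa replicate 1 (0.120), and IMD3 without no rapa replicate 1 (0.175). The difference within a pair was not tested.

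At the 3′ side, 14 open reading frames of the opposite strand overlapped a member, of which 3 rose and 3 fell. Among all open reading frames 17.5% rose and 30.2% fell. TAD2, which overlaps SNX4 by 96 bp, rose by 1.45 ± 0.29 (adjusted p = 0.00168, edgeR) while SNX4 fell. PFD1 beside ATG27 (1.01 ± 0.27) and PYC2 beside ATG12 (0.69 ± 0.26, adjusted p = 0.0484) rose, and TAH18 beside ATG11 (-1.02 ± 0.19), MLH3 beside ATG29 (-1.14 ± 0.24) and VPS27 beside ATG3 (-0.60 ± 0.17) fell. PYC2 lost its call without the low-count filter (adjusted p = 0.0558, edgeR), without no rapa replicate 2 (0.417) and without with rapa replicate 1 (0.164), and PFD1 without no rapa replicate 1 (0.103). VPS27 lost its call in 3 of the fits that left out a library (0.0643 to 0.0991). Counts were kept by strand: 204 of 254 transcripts that another covers completely on the other strand were nonetheless counted in all 4 libraries.

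In the promoter windows of the 30 members, 5 motifs were searched on both strands: a stress response element, a GATA site, a Gcn4 site, the core of URS1 and a TATA sequence. AGGGG, the element of Msn2 and Msn4, was in 11 windows (36.7%), against 21.8% of 4928 open reading frame windows. GATAAG, as bound by Gln3 and Gat1, was in 9 (30%), against 14.2%. The Gcn4 motif TGACTCA was in 2 windows, those of ATG29 and VPS34 (6.67%, against 3.003%). The TATA motif TATAAA was in 14 windows (46.7%, against 45.2%). The URS1 core of Ume6, GGCGGC, was in 1 window, that of ATG8, against 4.65% of all, and lies there as a pair of overlapping matches that begin 89 and 86 bases before the annotated start. The ATG8 window also holds AGGGG at 47 and 24 bases and GATAAG at 16 bases before the start, without overlap between motifs. The ATG1 window holds GATAAG at 71 bases before the start and its reverse complement at 3 bases before it. The windows of ATG31 and ATG22, the genes that rose, hold no match to these letters. Nor do those of ATG7 and ATG21, which fell, or of ATG17, ATG3 and ATG12, which were not called. Members with AGGGG or GATAAG included genes that fell (ATG29, ATG9, ATG1, SNX4) and genes that were not called (ATG8, ATG18, ATG14).

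Genes upstream of the pathway were read from lists of its known regulators and partners. Of 9 measured regulators of ATG transcription, 7 fell, 0 rose by edgeR (7 had an unadjusted p under 0.05, and DESeq2 called none higher) and 2 were not called, with a median log2 fold change of -0.90, beside the 30.2% of open reading frames that fell. GIS1, which represses autophagy genes together with its relative Rph1, measured 116 and 109 CPM with rapamycin, against 504 and 423 CPM without it (-2.05 ± 0.18, adjusted p = 8.85e-06, edgeR). RPH1 measured 46.9 and 53.3 CPM with rapamycin, against 135 and 131 CPM without it (-1.41 ± 0.17), and the GATA factor gene GLN3 81.4 and 63.99 CPM, against 171 and 189 CPM (-1.31 ± 0.18). MSN4, a stress activator gene, fell by 0.91 ± 0.18. The 7 genes that fell thus included repressors and activators of ATG transcription.

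Of 7 measured kinase genes upstream of autophagy, 5 fell, 0 rose by edgeR (5 had an unadjusted p under 0.05, and DESeq2 called none higher) and 2 were not called (median -0.55). Beside this list and the next, 17.5% of open reading frames rose and 30.2% fell. TPK2, which encodes a catalytic subunit of protein kinase A, a kinase that restrains autophagy, fell by 1.24 ± 0.19. SNF1, the AMP-activated kinase gene, and its activating subunit gene SNF4 fell by 0.55 ± 0.19 and 0.58 ± 0.18, calls that were lost with DESeq2 (adjusted p of 0.0782 and 0.0503). The number of called genes of the list was 2 with DESeq2 and 2 without no rapa replicate 1. Of 12 measured genes of TORC1 and its partners, 1 rose, 3 fell and 8 were not called (median -0.02). LST8, a TORC1 subunit gene, measured 132 and 132 CPM with rapamycin, against 602 and 669 CPM without it (-2.27 ± 0.19). NPR3 (-0.78 ± 0.16) and NPR2 (-0.69 ± 0.18) of the complex that restrains TORC1 also fell, and SEH1, which encodes a subunit shared with the nuclear pore, rose (0.52 ± 0.17). Without no rapa replicate 1 the list had 2 called genes, with NPR2 at an adjusted p of 0.0559 (edgeR), and SEH1 lost its call without either library lacking rapamycin (0.0994 and 0.250).

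Of 11 measured genes for vacuolar hydrolases and cargo, 4 rose, 1 fell and 6 were not called (median 0.51). Beside this list and that of vacuole fusion, 17.5% of open reading frames rose and 30.2% fell. PRB1, the proteinase B gene, measured 316 and 175 CPM with rapamycin, against 860.5 and 638 CPM without it (-1.61 ± 0.27). PRC1, the carboxypeptidase Y gene, measured 721 and 613 CPM, against 364 and 297 CPM (1.01 ± 0.20). AMS1, the mannosidase gene whose product is cargo of Atg19 and Atg34, rose by 1.24 ± 0.22, and the phosphatase gene PHO8 by 0.54 ± 0.16. PHO8 lost its call without either library lacking rapamycin (adjusted p of 0.0941 and 0.233, edgeR), and the list had 3 called genes without no rapa replicate 2. PEP4, the proteinase A gene that activates the others, was not called (0.05 ± 0.19). Of 11 measured vacuole fusion genes, 2 rose, 4 fell and 5 were not called (median -0.04). The tethering gene VPS16 (-0.54 ± 0.16), its partner VPS33 (-0.59 ± 0.18) and the SNARE gene NYV1 (-0.59 ± 0.19) fell, and the SNARE gene YKT6 rose (0.70 ± 0.22). These calls were not stable: VPS16, VPS33 and NYV1 lost theirs with DESeq2 (adjusted p of 0.0539, 0.0537 and 0.0559) and YKT6 without no rapa replicate 1 (0.204). The list had 2 called genes with DESeq2, 0 without no rapa replicate 1, 2 without no rapa replicate 2 and 3 without with rapa replicate 2.

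Of 10 further genes of selective autophagy and its membrane supply, 3 rose, 4 fell and 3 were not called (median -0.31). Among open reading frames 17.5% rose and 30.2% fell. ATG40, the receptor gene of ER autophagy, measured 23.3 and 17.0 CPM with rapamycin, against 172 and 88.1 CPM without it (-2.69 ± 0.29, adjusted p = 2.64e-05, edgeR). ATG41, whose product takes part in Atg9 delivery, measured 90.6 and 57.5 CPM with rapamycin, against 284 and 416 CPM without it (-2.24 ± 0.25). TRS85, a subunit gene of the complex that activates Ypt1 for autophagy, measured 348 and 299 CPM with rapamycin, against 119 and 91.3 CPM without it, a rise of 1.62 ± 0.19.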

How the data were processed

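4-thiouracil-labelled RNA was counted in 4 libraries, 2 with rapamycin and 2 without it. The deposited tables hold whole-number counts per annotated transcript. Per the submitters' processing notes, the tools included HTSeq, SAMtools and STAR 2.3.0, and the named builds were R64 and sacCer3. Rows of reads with no feature (50.45% and 49.95% with rapamycin, against 33.7% and 33.1% without it) and the other counter rows stayed out of library sizes and tests. Spike-ins were not analysed here. No label says that replicates came from separate cultures, so the p-values rest on a spread that may be only technical.

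Counts were filtered with filterByExpr, scaled by TMM and tested with edgeR 4.0.16 (glmQLFit, glmQLFTest; group only), with Benjamini-Hochberg adjustment over 5707 features and a threshold of 0.05. SEs were derived from the log2 fold change and its F statistic. DESeq2 1.42.0 was an alternative. Replicate numbers were not used to pair the libraries in the main fit: there are only 2 pairs and the labels do not say what a number shares.

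All members are named, with up to 4 called genes of each list by smallest adjusted p, and called antisense or divergent neighbours whose mean log2 CPM reached 3. Others (PEP4, ATG38, FAL1, SET6, FPR1, STE3, the low noncoding transcripts and same-strand neighbours) were chosen after their values were seen. So were MAK3, SMK1 and the other mating-type and meiotic markers named. One gene that this rule names is not reported here. The members and lists were chosen with earlier results of these data known. No promoter or protein table was used. Promoters were read from the R64 genome at the deposited transcript starts. All 4842 open reading frames matched to the R64 annotation lay inside their deposited transcripts.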

Additional observations from a re-analysis of the deposited data

Results flagged for a closer look

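Reads that no feature took, a signal outside the main measurement, made up 50.45% and 49.95% of the counted reads in the libraries with rapamycin, against 33.7% and 33.1% in those without it. The part of this difference in the fold changes of the autophagy genes was not tested.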

How the results depend on the processing

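Of 14 called members, 8 (ATG1, ATG29, ATG31, ATG7, VPS30, SNX4, ATG15 and ATG22) were called under every alternative that kept them and 6 lost the call under at least 1. Of 16 uncalled members, 9 were called under at least 1 alternative, and no called member changed sign. Against 2 members higher and 12 lower, DESeq2 gave 7 lower, and RLE scaling and open reading frames alone each gave 4 higher. Without overlapping features (2760 tested), 1330 features were called, 0 members were higher and 3 lower by edgeR, and 0 kinase complex and 0 lipid kinase genes were called, most members having been removed by construction. The conjugation median was then -0.58. The kinase complex median was -0.48 with DESeq2, -0.47 with RLE scaling, -0.41 with open reading frames alone and -0.47 without overlapping features. Leaving out 1 library at a time gave 1588 to 3312 features called, 2 to 5 members higher, 6 to 14 lower, 3 to 5 kinase complex, 1 to 4 conjugation and 1 to 2 lipid kinase genes called, and a kinase median of -0.78 to -0.15. The cause was not tested.

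With replicate number as a block, 2970 features were called, against 2623 without it, with 2 members higher and 13 lower and a kinase median of -0.68. Same-numbered libraries' deviations correlated at 0.233. Depth limits ATG10, ATG17 and ATG34 most, at 40, 38 and 34 counts in with rapa replicate 1.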

Other observations

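A tRNA gene, YNCJ0015W, lies on the strand of SNX4 273 bp before its annotated start, as another lies before ATG31. These were looked up after the values were seen. Over the 126 open reading frames tested with a tRNA gene on their strand within 1000 bp upstream, 12.7% were called higher and 50.8% lower, with a median log2 fold change of -0.66. Over the 4732 with none, 17.6% were higher and 29.7% lower, with a median of -0.13. ATG31, which rose, was the 1 of the 126 with a rise of 16-fold or more, against 8 of the 4732, while SNX4 fell. The difference between these sets was not tested.

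The mating-type marker STE3, the a-factor receptor gene of MATalpha cells, measured 90.2 and 91.2 CPM with rapamycin, against 320.5 and 347 CPM without it, a fall of 1.88 ± 0.17 on the log2 scale (adjusted p = 8.61e-06, edgeR). The other measured MATalpha markers were not called, MF(ALPHA)1 at -0.04 ± 0.21 and SAG1 at 0.16 ± 0.17 (adjusted p of 0.905 and 0.442, edgeR). The diploid meiotic markers summed to 10.6 and 28.8 CPM with rapamycin, against 56.9 and 41.9 CPM without it. Of these, IME2 fell (-1.59 ± 0.35, adjusted p = 0.00280, edgeR) and IME1 was not called (-0.28 ± 0.59), with overlapping groups.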
